A study of Mus musculus with 11 samples.

Results

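The genes described here are the immunoglobulin gene segments of the count table: variable (V) segments of the heavy, kappa and lambda loci, the constant genes of the heavy and light chains, and the J chain gene Igj. Rows were taken by symbol and kept where the 11 raw counts summed to at least 10, which left 99 members of 228 rows with a matching symbol, out of 37991 genes. Of the other matching rows, 102 had no count in any library and 27 had 1 to 9 counts. The members were thus chosen on their total over all libraries, and that total is not a finding. They comprised 44 heavy V, 44 kappa V and 2 lambda V segments and 9 constant or J chain genes (Ighm, Ighg1, Ighg2b, Ighg2c, Ighg3, Igkc, Iglc2, Iglc3 and Igj). Just inside the threshold lay Iglv3 with 10 counts and Igkv12-44 with 11, and just outside it Ighv6-6 with 9 counts and Igkv3-1 with 8. The symbols Igha and Ighd, of the IgA and IgD constant genes, matched no row, so heavy constant counts here are of IgM and IgG alone.

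An antibody is built from 2 heavy and 2 light chains. Each B cell joins V segments to diversity and joining segments by cutting its own DNA, and its descendants carry the same joined segments, so that a clone of plasma cells makes transcripts of a single heavy V and usually a single light V segment. Ighm encodes the constant part of IgM, the class made before class switching, and the Ighg genes encode those of the IgG subclasses, made after it. Experimental autoimmune encephalomyelitis (EAE), in which the immune system of a mouse attacks myelin, models multiple sclerosis and brings leukocytes into the spinal cord.

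RNA sequencing covered 11 libraries in 4 groups. In Col1a1GFP mice of the C57BL/6 strain, green fluorescent protein (GFP) is a reporter of the collagen gene Col1a1. The GFP+ cells were taken by flow sorting out of spinal cords of healthy mice (control, n = 3), of mice with EAE 5 days after symptom onset (D5, n = 3) and of mice with EAE 10 days after it (D10, n = 3). Each sorted library pooled 2 to 3 cords, so a library mixes the antibody genes of several animals. The whole cord group (n = 2) held homogenate of 1 cord per library from healthy C57BL/6 mice, per the design text, although the labels of these libraries repeat the sorting protocol. Age, sex and the way EAE was induced are not stated in the labels. Library totals ran from 7123291 to 12238751 counts. The 7 fibroblast markers, Col1a1 among them, had a summed level, in counts per 1000000 counts of the library (CPM), of 22386 to 62909 in the 9 sorted libraries and of 143 and 258 in whole cord. CPM values are counts divided by the library total, without further scaling, and intervals given with shares and levels cover counting error only.

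Immunoglobulin transcripts were close to absent from sorted control cells and abundant in sorted cells of both EAE stages. All members together held 14, 44 and 5 counts in control replicates 1, 3 and 4. They held 4508, 3589 and 3362 counts in D5 replicates 1 to 3, and 18876, 3925 and 5257 counts in D10 replicates 1 to 3. As a level this was 2.26 ± 2.07 CPM in control (SD, n = 3), 493 ± 45.1 CPM at D5 (n = 3) and 1002 ± 910 CPM at D10 (n = 3). The lowest EAE library, D10 replicate 2 with 374 CPM (95% Poisson interval 363 to 386), lay far above the highest control library with 4.53 CPM (3.29 to 6.08). The D5 libraries were alike, while the highest D10 library was 5.47 times the lowest. D10 replicate 1, with 2045 CPM, set most of the D10 mean, which was 480 CPM without it. Whole cord held 256 and 259 counts, or 24.7 ± 4.95 CPM (n = 2), nearly all of it Ighm, without which the mean was 1.96 CPM. In bulk samples, more cells of a type and more RNA per cell cannot be told apart.

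**Figure D1:**
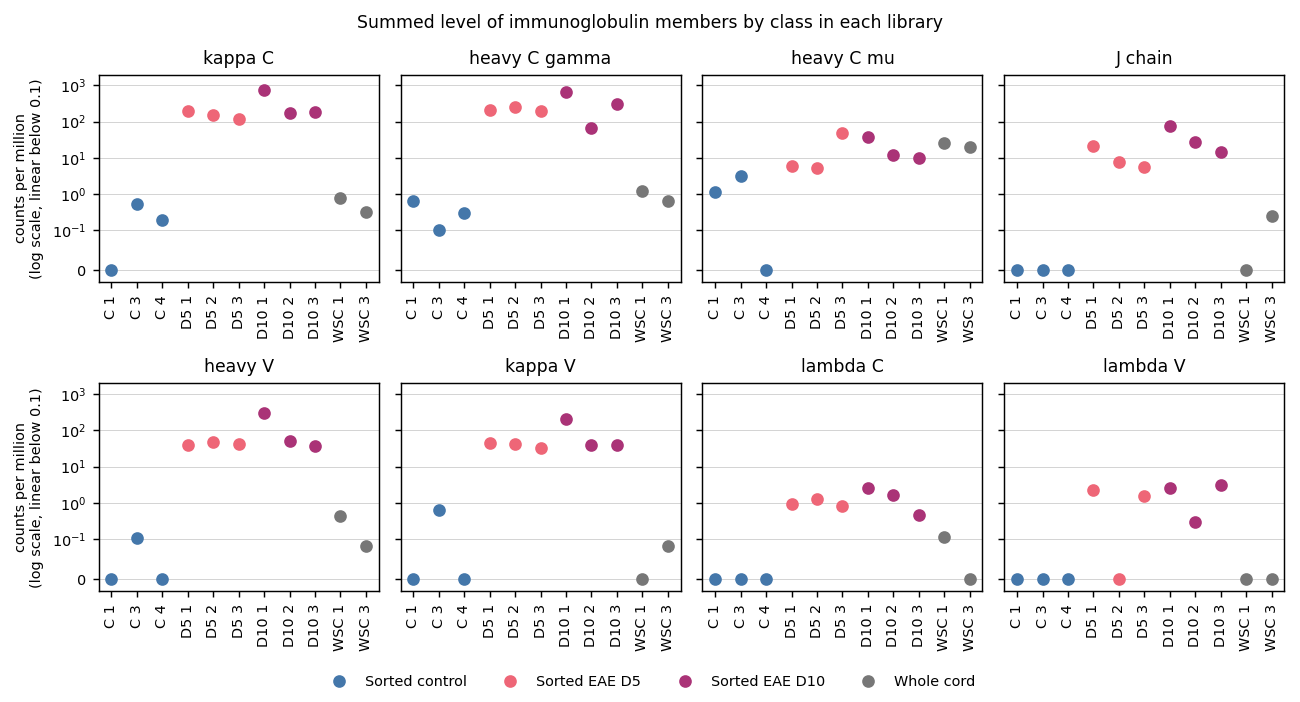
Summed level of the members of each class in each library, in CPM on an axis that is logarithmic above 0.1 and linear below it. Each point is 1 library (C control, D5, D10 and WSC whole cord, with replicate numbers). Kappa constant transcripts ran from 116 to 741 CPM in the 6 EAE libraries against at most 0.514 CPM in control, and whole cord was high in the IgM constant class alone.

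Of the 99 members, 19 passed the expression filter of the fit over the 9 sorted libraries, 13 V segments and 6 constant or J chain genes, and 80 did not. At D5, 8 of these 19 were higher than in control and 0 were lower (quasi-likelihood test of edgeR, adjusted p under 0.05), where 13.2% of all 15972 tested genes were called higher and 10.7% lower. At D10, 9 were higher and 0 were lower, against 8.38% and 4.99% of all tested genes. A member that is at 0 in control passes the filter only through the EAE libraries, so these counts describe the 19 and are no measure of the other 80. In all, 93 members had no count in any control library, 85 had none in whole cord, and 7 had counts in each of the 6 EAE libraries. These 7 were Igkc, Ighg1, Ighg2b, Ighg2c, Ighm, Igj and Iglc3, and no V segment was among them. The D5 and D10 comparisons share the 3 control libraries.

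Igkc, the kappa light chain constant gene on chromosome 6, was the most abundant member. It had 0, 5 and 2 counts in control, 1684, 1074 and 877 at D5, and 6841, 1824 and 1656 at D10. No EAE library overlapped control. Its log2 fold change against control was 9.20 ± 0.82 (SE) at D5 (edgeR adjusted p = 4.87e-05) and 10.50 ± 0.83 at D10 (edgeR adjusted p = 4.15e-05). The lambda light chain genes were rare in comparison: Iglc2 and Iglc3, lambda constant genes on chromosome 16, had 3 to 5 counts each in the D5 libraries and 0 to 16 at D10, and neither passed the filter. Lambda made up 0.241% to 0.923% of light chain constant counts in the 6 EAE libraries. Iglc2 and Iglc3 were the only lambda constant genes among the rows with a matching symbol, so this share covers those 2. On V counts, lambda held 19, 0 and 12 beside 391, 295 and 248 kappa counts in D5 replicates 1 to 3. In D10 replicates 1 to 3 it held 24, 3 and 27 beside 1900, 423 and 345. The lambda V segment Iglv1 had 17, 0 and 12 counts at D5 and 24, 0 and 22 at D10, so it was listed at 0 in replicate 2 of each stage. Kappa chains are known to predominate over lambda chains in mouse antibodies.

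Transcripts of 3 switched heavy chain genes, all on chromosome 12, rose in both EAE groups. Ighg1 had no count in any control library, 450, 256 and 541 counts at D5, and 687, 631 and 735 at D10. It was at least 501-fold higher at D5 and at least 667-fold higher at D10, against a floor of 3 counts over the control group (edgeR adjusted p = 1.18e-05 and 9.93e-06). Leaving out 1 control library divides every bound against this floor by 1.40 to 1.58, since the 3 counts are then set against a smaller control total. Of the 3 IgG genes called, Ighg1 had the smallest SD at D10, at 72.2 ± 11.1 CPM (SD, n = 3). Ighg2b had 5, 0 and 1 counts in control, 562, 910 and 643 at D5, and 1117, 69 and 1281 at D10. Its log2 fold change was 8.65 ± 1.21 at D5 (edgeR adjusted p = 0.00041) and 8.69 ± 1.21 at D10 (edgeR adjusted p = 0.00105).

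Ighg2c encodes the subclass that C57BL/6 mice carry in place of IgG2a. It had 0, 1 and 2 counts in control, 814, 609 and 202 at D5, and 4453, 19 and 655 at D10. Its level in the D10 libraries ran from 1.81 to 482 CPM, a wider range than that of Ighg1 (60.1 to 81.9 CPM) or Ighg2b (6.58 to 143 CPM). On summed counts Ighg2c was 653-fold higher at D5 (95% counting interval 223 to 3170) and 1666-fold higher at D10 (570 to 8080), with edgeR adjusted p = 0.00573 and 0.00451. The D10 fold was 323 without D10 replicate 1 and 2616 without D10 replicate 2. Without control replicate 4, which held 2 of the 3 control counts, the folds were 1237 at D5 and 3156 at D10. Ighg3 was nearly confined to a single EAE library: it had 118 counts in D5 replicate 3, 1 count in D10 replicate 1 and 0 in the other 4 EAE libraries and in control. In whole cord Ighg3 had 7 of 11 and 5 of 8 IgG counts. It did not pass the filter.

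The test chosen mattered for these genes. With limma-voom, the calls of Igkc (adjusted p = 0.0798 at D5 and 0.0784 at D10), Ighg2b (0.315 and 0.420), Ighg2c (0.546 and 0.628) and Igj (0.0817 and 0.0532) were lost, while Ighg1 was called at both stages.

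The IgG subclass that led differed from library to library. The genes differ most in the hinge, the flexible stretch whose cysteines bond the heavy chains of an antibody to each other. Their hinge exons are shown in lower case with the cysteine codons in capitals, from the GENCODE M21 annotation of the GRCm38 genome, because these stretches set the 3 leading transcripts apart. The exon of Ighg1 has 39 bases and 4 such codons, that of Ighg2b 66 bases and 4, and that of Ighg2c 63 bases and 3.
Ighg1 hinge: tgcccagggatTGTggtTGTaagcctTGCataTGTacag
Ighg2b hinge: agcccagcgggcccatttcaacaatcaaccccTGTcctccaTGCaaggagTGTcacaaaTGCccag
Ighg2c hinge: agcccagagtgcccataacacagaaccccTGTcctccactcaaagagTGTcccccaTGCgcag

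At D5, Ighg2c led in replicate 1 with 44.6% of 1826 IgG counts (95% Clopper-Pearson interval 42.3 to 46.9%). Ighg2b led in replicate 2 with 51.3% of 1775 (48.9 to 53.6%) and in replicate 3 with 42.8% of 1504 (40.2 to 45.3%). In D5 replicate 3, Ighg3 made up a further 7.85% (6.54 to 9.32%). At D10, Ighg2c led in replicate 1 with 71.2% of 6258 IgG counts (70.0 to 72.3%). Ighg1 led in D10 replicate 2 with 87.8% of 719 (85.1 to 90.1%), where Ighg2c made up 2.64% (1.60 to 4.10%). Ighg2b led in D10 replicate 3 with 48.0% of 2671 (46.0 to 49.9%). Each of the 3 subclass genes therefore led in 1 D10 library. The shares were not tested between stages, since an exact two-sided permutation test of 3 libraries against 3 cannot go below p = 0.1. The IgG genes of D10 replicate 2 summed to 68.5 CPM against 298 CPM in replicate 3, while the Igkc levels of these libraries were 174 and 185 CPM.

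**Figure D2:**
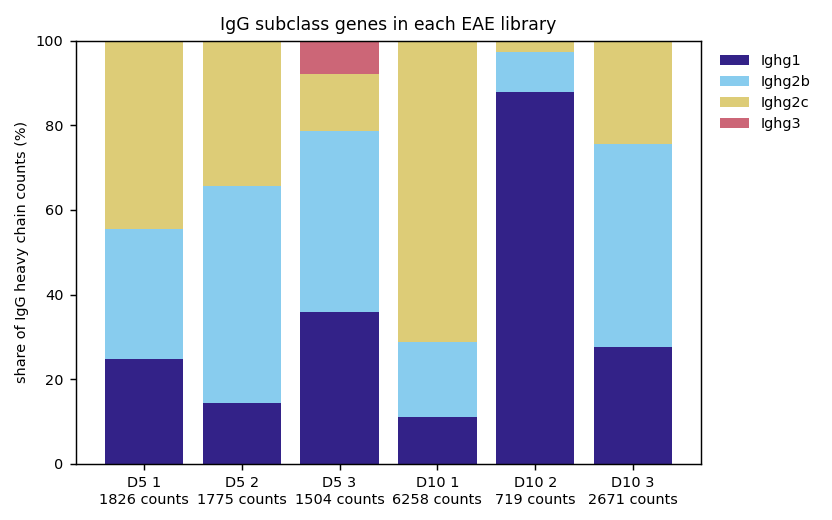
Share of each IgG subclass gene in the IgG heavy chain counts of each EAE library, in percent, with the number of counts under each bar. Ighg1 takes 87.8% in D10 replicate 2 and 10.98% in D10 replicate 1, and Ighg3 is visible in D5 replicate 3 alone.

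Ighm, the IgM constant gene on chromosome 12, was present in whole cord and in 2 of the 3 control libraries as well as in EAE. It had 9, 31 and 0 counts in control, 52, 38 and 358 at D5, 341, 129 and 86 at D10, and 233 and 242 in whole cord. Every EAE library was above every control library, with D5 replicate 3 and D10 replicate 1 the highest of their groups. The log2 fold change against control was 3.76 ± 1.04 at D5 (edgeR adjusted p = 0.0202) and 3.81 ± 1.04 at D10 (edgeR adjusted p = 0.0298). These calls were fragile. The D5 call was lost without control replicate 1 (adjusted p = 0.0683), control replicate 4 (0.0640) or D5 replicate 3 (0.164, with the log2 fold change down to 1.99). The D10 call was lost without control replicate 1 (0.0915), control replicate 4 (0.0861) or D10 replicate 1 (0.105), and limma-voom made neither call (0.150 and 0.136).

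In the comparison of sorted control cells with whole cord, Ighm was the single member that passed the filter, and it was lower in the sorted cells by a log2 fold change of -4.24 ± 0.86 (edgeR adjusted p = 0.00445). In that fit 28.7% of all 16562 tested genes were called lower. The make-up of heavy chain transcripts also differed. Ighm was 95.5% (92.1 to 97.7%) and 96.8% (93.8 to 98.6%) of heavy constant counts in the 2 whole cord libraries, but 2.10% to 19.2% in the 6 EAE libraries. The light chain was scarce beside Ighm in whole cord. In CPM per kilobase of the shortest annotated transcript, the level of Ighm was 17.2 and 13.2 in whole cord against 1.45 and 0.614 for Igkc. On the same scale the level of Igkc ran from 217 to 1393 in the EAE libraries against 3.57 to 31.6 for Ighm. In control replicate 3, Ighm held 31 of 32 heavy constant counts (96.9%, 83.8 to 99.9%).

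Igj encodes the J chain, on chromosome 5, which links antibodies of the IgM and IgA classes into polymers and which many IgG-secreting cells make as well. It had no count in control, 183, 53 and 43 counts at D5, and 707, 285 and 128 at D10, and it was at 0 and 3 counts in whole cord. It was at least 112-fold higher at D5 and at least 364-fold higher at D10 against a floor of 3 counts over the control group (edgeR adjusted p = 0.00131 and 0.000871). These bounds were 60.8-fold without D5 replicate 1 and 198-fold without D10 replicate 1.

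Between the EAE stages, no member was called in either direction, where 0.131% of all tested genes were called (edgeR). The 3 members with the lowest p are named here, although none was called. Igkc was 1.30 ± 0.47 higher on the log2 scale at D10 (edgeR adjusted p = 0.460) and Igj 1.80 ± 0.62 higher (edgeR adjusted p = 0.456). Lowest in p was Igkv17-127, a kappa V segment with 11, 37 and 28 counts at D5 and 0 in each D10 library (edgeR adjusted p = 0.129). The other constant genes had log2 differences of 0.49 ± 0.25 for Ighg1, 1.48 ± 1.04 for Ighg2c, 0.04 ± 0.68 for Ighg2b and 0.05 ± 0.86 for Ighm. Without D10 replicate 3, 3 members were called, and the range of calls over all genes on leaving out 1 library is given below.

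The V segments, which make the antigen-binding ends of the chains, were close to absent from control. Of the 90 V members, 2 had counts in control, both in replicate 3 (Ighv1-80 with 1 and Igkv12-46 with 6), and whole cord held 4 and 2 V counts. The EAE libraries held 755, 640 and 574 V counts at D5 and 4706, 951 and 712 at D10. At least 1 count was seen for 41, 23 and 25 of the 90 segments in D5 replicates 1 to 3 and for 46, 21 and 43 in D10 replicates 1 to 3. The number of segments did not follow the number of counts: D10 replicate 2 had more V counts than D10 replicate 3 and 21 segments to its 43.

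No V member had counts in all 6 EAE libraries, 4 had counts in 5 of them, 7 in 4, 20 in 3, 32 in 2 and 27 in a single library. For 37 of the 90, at least 90% of the EAE counts came from 1 library, and the median share of a segment's EAE counts in its highest library was 84.0%. D10 replicate 1, with the most V counts, was the highest library for 38 segments. Counting segments with at least 5 counts, D10 replicate 2 had 18 and shared 7 of them with D10 replicate 1, which is 38.9% of its own and 16.3% of the 43 in replicate 1. It shared 3 with D10 replicate 3, or 16.7% of its own and 9.09% of the 33 there. The largest overlap of any pair was between D5 replicate 1 and D10 replicate 1, with 15 segments, 53.6% and 34.9% of their lists. The pairs within D5 shared 5 to 8 segments, the pairs within D10 shared 3 to 14, and pairs across the stages shared 2 to 15. These ranges are a description.

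**Figure D3:**
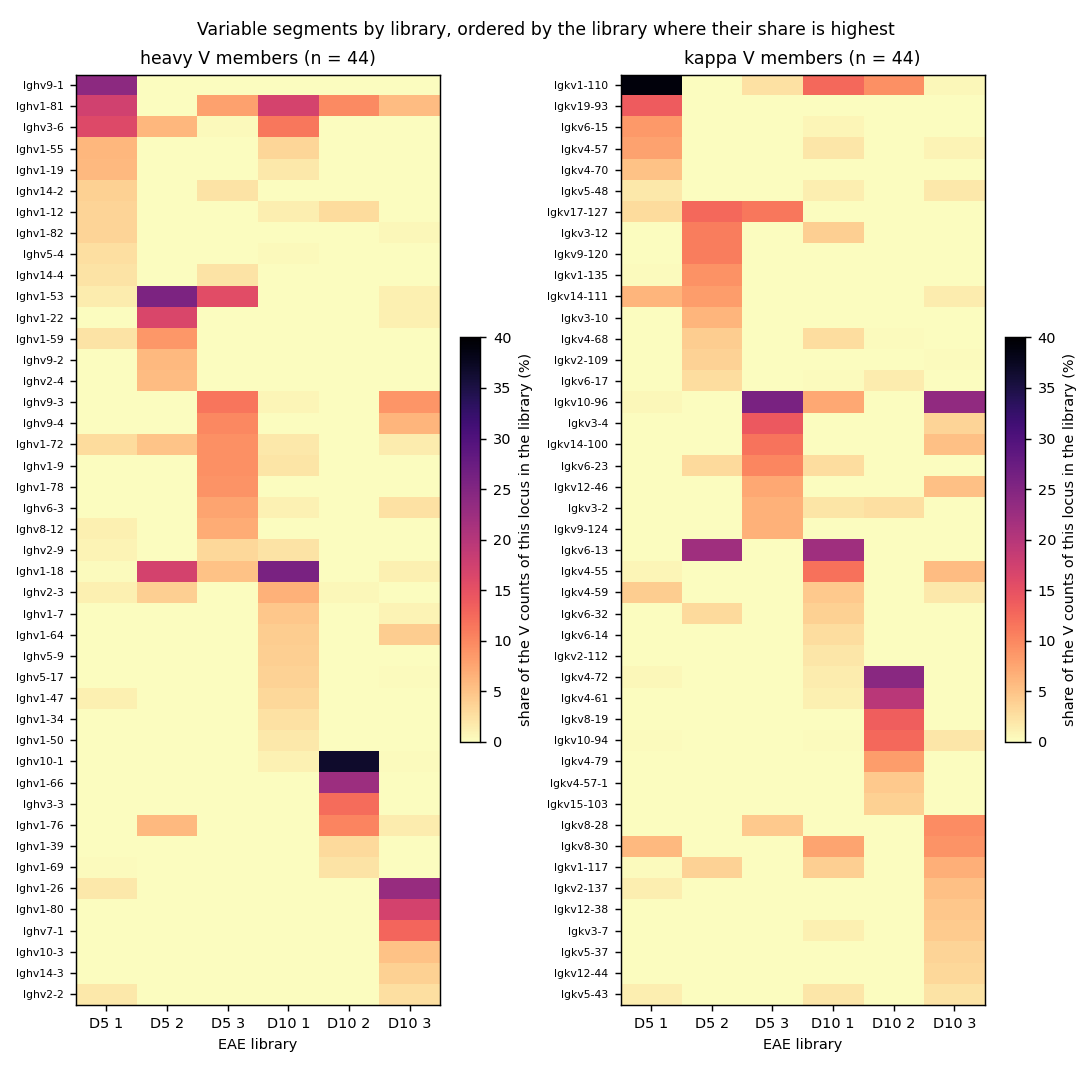
Share of each heavy V member (left) and kappa V member (right) in the V counts of its locus in each EAE library, in percent by colour. Rows are ordered by the library in which the share is highest, and the dark blocks fall in different rows from column to column, with Igkv1-110 in D5 replicate 1 (39.1%) and Ighv10-1 in D10 replicate 2 (36.6%) the darkest.

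Across the 6 EAE libraries, 5 different heavy V segments took the lead. Ighv9-1 led D5 replicate 1 with 83 of 345 heavy V counts (24.1%, 95% Clopper-Pearson interval 19.6 to 28.9%) and had no count in any other library. Ighv1-53 led D5 replicate 2 with 88 of 345 (25.5%, 20.99 to 30.5%) and D5 replicate 3 with 49 of 314 (15.6%, 11.8 to 20.1%), and had 0, 0 and 4 counts at D10. Ighv1-18 led D10 replicate 1 with 719 of 2782 (25.8%, 24.2 to 27.5%). Ighv10-1 led D10 replicate 2 with 192 of 525 (36.6%, 32.4 to 40.9%) and had 0 counts at D5. Ighv1-26 led D10 replicate 3 with 78 of 340 (22.9%, 18.6 to 27.8%).

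The variable exons of these 5 leading segments are shown because reads are assigned to a segment by the bases in which it differs from its relatives. They are shown from base 12 of the exon, for at most 300 bases, and are the germline reference of GENCODE M21 on GRCm38 (chromosome 12), not sequences of these mice. Capitals mark the bases that differ from the nearest of the 112 annotated heavy V segments compared. Ighv1-18 was matched to the annotation by its identifier and the other 4 by symbol.
Ighv9-1: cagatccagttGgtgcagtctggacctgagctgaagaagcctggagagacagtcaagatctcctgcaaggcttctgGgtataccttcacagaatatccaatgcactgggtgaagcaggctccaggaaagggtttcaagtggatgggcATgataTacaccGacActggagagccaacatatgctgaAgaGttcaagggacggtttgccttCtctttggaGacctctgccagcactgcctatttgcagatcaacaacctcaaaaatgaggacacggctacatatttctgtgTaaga
Ighv1-53: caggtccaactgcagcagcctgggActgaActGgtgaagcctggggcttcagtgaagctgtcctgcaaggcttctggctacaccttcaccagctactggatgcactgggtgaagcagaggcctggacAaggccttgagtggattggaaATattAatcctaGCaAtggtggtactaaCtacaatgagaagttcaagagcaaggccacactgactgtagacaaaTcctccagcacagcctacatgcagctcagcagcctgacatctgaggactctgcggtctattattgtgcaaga
Ighv1-18: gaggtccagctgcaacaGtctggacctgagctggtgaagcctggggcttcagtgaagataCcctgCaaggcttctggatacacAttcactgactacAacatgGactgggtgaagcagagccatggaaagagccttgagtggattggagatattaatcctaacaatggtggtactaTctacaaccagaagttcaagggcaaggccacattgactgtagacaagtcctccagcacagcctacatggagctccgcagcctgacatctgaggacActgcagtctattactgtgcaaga
Ighv10-1: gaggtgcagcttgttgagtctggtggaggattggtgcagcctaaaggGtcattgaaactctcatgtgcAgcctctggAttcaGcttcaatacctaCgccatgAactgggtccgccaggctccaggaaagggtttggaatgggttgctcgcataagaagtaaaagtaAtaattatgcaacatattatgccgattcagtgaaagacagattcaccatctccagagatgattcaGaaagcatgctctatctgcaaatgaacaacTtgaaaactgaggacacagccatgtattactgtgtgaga
Ighv1-26: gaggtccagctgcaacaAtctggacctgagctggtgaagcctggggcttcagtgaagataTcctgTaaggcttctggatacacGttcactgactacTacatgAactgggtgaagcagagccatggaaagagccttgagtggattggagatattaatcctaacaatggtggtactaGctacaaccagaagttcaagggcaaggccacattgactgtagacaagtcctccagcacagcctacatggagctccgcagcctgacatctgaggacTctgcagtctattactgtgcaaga

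Ighv1-18 and Ighv1-26 are each other's nearest relative, with 8 of the 305 bases of the exon different (97.38% identity). Their counts nevertheless stood apart: D10 replicate 1 had 719 counts of Ighv1-18 and 0 of Ighv1-26, while D10 replicate 3 had 4 of Ighv1-18 and 78 of Ighv1-26. Ighv1-18 also had 59 counts in D5 replicate 2, where Ighv1-26 had 0. The nearest relative of Ighv1-53 is Ighv1-72 (12 bases different, 96.07% identity), which had 10, 17 and 29 counts at D5 against 5, 88 and 49 for Ighv1-53. Ighv9-1 differs from Ighv9-2 in 14 bases (95.41% identity), and Ighv10-1 from Ighv10-3 in 10 of 313 (96.81% identity). Ighv9-2 had counts in D5 replicate 2 alone (20) and Ighv10-3 in D10 replicate 3 alone (17), neither being the library that its relative led. Since antibody genes are mutated during an immune response and reads of near-identical segments may be lost or split in counting, the count of a single segment is uncertain.

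Among the other heavy segments, Ighv1-81 had counts in 5 of the 6 EAE libraries, as had Ighv1-72, with 60, 0 and 25 counts at D5 and 472, 51 and 19 at D10. It was called at D10, at least 176-fold above a floor of 3 counts over control (edgeR adjusted p = 0.0157), and lost the call without control replicate 4 (0.0533) and with limma-voom (0.177). Without D10 replicate 1 the bound was 33.5-fold. Ighv3-6 had 55, 21 and 1 counts at D5 and 315, 0 and 0 at D10. Ighv2-3 had 4, 14 and 0 counts at D5 and 179, 3 and 0 at D10. Ighv1-66 had all of its 118 counts in D10 replicate 2, where it was second among heavy segments. Ighv1-72 was called at both stages, at least 22.5-fold and 18.2-fold above the floor (edgeR adjusted p = 0.0276 and 0.0481). These 2 calls were close to the threshold. The D5 call was lost without any one of control replicates 1, 3 and 4 and D5 replicates 2 and 3 (adjusted p from 0.0504 to 0.0747). The D10 call was lost without any one of the 3 control libraries, D10 replicate 1 or D10 replicate 3 (adjusted p from 0.0646 to 0.202), with limma-voom (0.285) and with all 11 libraries in 1 fit (0.0560). At D10 Ighv1-72 had 51, 0 and 5 counts, so that replicate 2 was at 0 like the control libraries, and the bound was 2.39-fold without D10 replicate 1 and 28.7-fold without D10 replicate 2. By family, segments of family 1 held between 46.4% and 78.6% of heavy V counts in each EAE library, and 23 of the 44 heavy members belong to it.

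The kappa V segments, on chromosome 6, gave a similar picture. Igkv1-110 led D5 replicate 1 with 153 of 391 kappa V counts (39.1%, 34.3 to 44.2%), was at 0 in D5 replicate 2 and had 238 counts in D10 replicate 1. Igkv6-13 led D5 replicate 2 with 65 of 295 (22.0%, 17.4 to 27.2%) and D10 replicate 1 with 419 of 1900 (22.1%, 20.2 to 24.0%), and it had no count in the other 4 EAE libraries. Igkv10-96 led D5 replicate 3 with 64 of 248 (25.8%, 20.5 to 31.7%) and D10 replicate 3 with 81 of 345 (23.5%, 19.1 to 28.3%). Igkv4-72 led D10 replicate 2 with 103 of 423 (24.3%, 20.3 to 28.7%) and had 0 counts in replicate 3. Thus 2 kappa segments each led in 1 D5 and 1 D10 library. Segments of kappa family 4 held 57.0% of kappa V counts in D10 replicate 2, 23.6% in D10 replicate 1 and 0 in D5 replicate 3.

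Of the abundant kappa segments, Igkv4-55 had 224 of its 246 counts in D10 replicate 1. Igkv8-30 had 23, 0 and 0 counts at D5 and 145, 0 and 31 at D10. Igkv17-127, described above, was the kappa segment called at D5, at least 30.5-fold above the floor over control (edgeR adjusted p = 0.00503). Igkv1-117, with 1, 11 and 0 counts at D5 and 76, 0 and 23 at D10, was called at D10 (at least 32.2-fold, edgeR adjusted p = 0.0486). That call was lost without any one of the 3 control libraries, D10 replicate 1 or D10 replicate 3 (adjusted p from 0.0940 to 0.142), with DESeq2 (0.0939), with limma-voom (0.275) and with all 11 libraries in 1 fit (0.0589). The bound was 11.02-fold without D10 replicate 1 and 50.7-fold without D10 replicate 2.

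Transcripts that mark B cells were scarce beside these immunoglobulin levels. Ms4a1, which encodes CD20, had 0 counts in control and at D5, and 0, 9 and 3 at D10. It was therefore at 0 in D10 replicate 1, the library with the most immunoglobulin counts, and Pax5, the B cell lineage factor, had 1 count in the EAE libraries together. Cd22, a B cell surface lectin, had 0 counts in control, 7, 7 and 3 at D5, and 30, 0 and 15 at D10, so that it was highest in D10 replicate 1. Blk, a kinase of B cell receptor signalling, had 0 counts in control and counts in each EAE library, with 10, 5 and 12 at D5 and 5, 4 and 3 at D10. Of 18 B cell markers, 6 were tested: at D5, Cd37, Cd72 and Spib were higher and Cd79a was lower, and at D10 Pou2af1, a coactivator of immunoglobulin promoters, was higher (edgeR). In sum the B cell list held 5.45 to 28.5 CPM in control, 38.1 to 48.2 at D5 and 24.3 to 40.1 at D10, with Cd72 the most abundant, and so overlapped between D10 and control.

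Markers of antibody-secreting plasma cells gave a mixed result. Of 15 listed, 14 were tested, with 4 higher and 1 lower at D5 and 3 higher and 0 lower at D10, against 23.9% and 13.4% of all tested genes called in either direction. Slamf7, a surface receptor of plasma cells and other leukocytes, had 4, 0 and 0 counts in control, 37, 88 and 36 at D5, and 70, 47 and 51 at D10 (edgeR adjusted p = 0.00105 and 0.00294). Irf4, a factor needed for plasma cell formation that activated T cells also use, had 17, 7 and 0 counts in control, 171, 80 and 67 at D5, and 72, 86 and 50 at D10 (edgeR adjusted p = 0.00253 and 0.0162). Sdc1, which encodes CD138, was already high in control with 419, 666 and 477 counts and reached 752 to 1141 at D5 and 693 to 1157 at D10. Xbp1 and Txndc5, of the secretory pathway, were also abundant in control, at 1212 to 1740 and 2524 to 3539 counts. Cd38, an ectoenzyme of plasma cells and other cells, was the gene called lower at D5, with 314, 605 and 357 counts in control, 109, 95 and 67 at D5, and 159, 358 and 133 at D10 (log2 fold change at D5 -1.96 ± 0.33, edgeR adjusted p = 0.0012). Tnfrsf17, which encodes the plasma cell receptor BCMA, was at 0 in every EAE library. Mzb1, also listed, had 6, 2 and 0 counts in control and 25, 4 and 9 at D5. At D10 it had 37, 12 and 19, the highest being in replicate 1, while D5 replicate 2 lay below control replicate 1. In sum the plasma cell list held 639 to 720 CPM in control, 769 to 904 at D5 and 733 to 907 at D10.

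Genes that act before and during antibody maturation were also looked at. Rag1 and Rag2 encode the enzyme that joins V segments. Rag1 had 6, 0 and 7 counts in control, 0 in each D5 library, 8, 18 and 3 at D10, and 4 and 3 in whole cord, whereas Rag2 had no count in any library. Dntt, which adds bases at the joins, had 14, 0 and 0 counts in control, 1, 2 and 2 at D5, and 0, 3 and 4 at D10. Vpreb1, part of the receptor of immature B cells, had 0 to 2 counts per library, and its partner Igll1 had none. Of 10 genes of that list, 4 were tested, and at each stage 1 was higher (the cytokine receptor Il7r, which T cells also carry) and 1 lower (Ebf1). In the class switching list of 8, 7 genes were tested and 2 were higher at each stage, the proliferation gene Mki67 and Apobec1. Of 13 genes that bind or transport antibodies, 10 were tested and 5 were higher at each stage, among them the Fc receptors Fcgr2b and Fcgr3 and the complement genes C1qa and C1qb at both. Fcgrt, the neonatal Fc receptor and the most abundant of that list, was lower at D5 by a log2 fold change of -0.72 (edgeR adjusted p = 0.00493). Of 8 B cell support factors, 7 were tested, with 1 higher at D5 and 2 at D10. Cxcl13, a B cell chemoattractant, was at 0 in control and had 9, 8 and 20 counts at D5 and 0, 10 and 39 at D10 (edgeR adjusted p = 0.0317 and 0.0416).

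Pan-leukocyte and T cell transcripts were also higher in both EAE groups than in control. At D10 against D5 the median log2 fold change of these lists was -1.03 and -1.17, with 0 genes of either list called. All 8 pan-leukocyte markers were higher at D5 and 7 at D10, and their summed level was 13.4 to 38.5 CPM in control, 187 to 370.5 at D5 and 120.5 to 190 at D10. Of 12 T cell markers, 11 were higher at each stage, with 28.1 to 46.6 CPM in control, 235 to 301 at D5 and 86.9 to 172 at D10. Thy1, which cells other than T cells also express, made up 85.1% to 97.1% of that sum in control and 42.6% to 68.2% in the EAE libraries. Without it the sum was 1.23 to 4.17 CPM in control, 81.6 to 173 at D5 and 38.9 to 54.6 at D10. The order of libraries was not that of the immunoglobulin genes: D10 replicate 1, first in immunoglobulin at 2045 CPM, had 120.5 CPM of the pan-leukocyte list, less than each D5 library. Of 9 marrow granulocyte markers, 1 (Lyz2) was higher at each stage and 8 were not called. Their sum was 9.71 to 91.4 CPM in control, 70.6 to 293 at D5 and 172 to 309 at D10. Lyz2 alone held 1.94 to 25.1 CPM in control, 57.3 to 145 at D5 and 83.7 to 241 at D10. Ngp, next in counts, held 1.65 to 23.1 CPM in control, 4.48 to 49.8 at D5 and 1.84 to 34.3 at D10. The rise of the sum was thus mostly that of Lyz2. Of 7 blood markers, 6 were tested, with 0 higher at either stage, 2 lower at D5 and 0 lower at D10. Their sum was 14.6 to 42.8 CPM in control, 4.21 to 12.96 at D5 and 16.6 to 55.9 at D10. The part of these other cells in the immunoglobulin values was not tested.

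**Figure D4:**
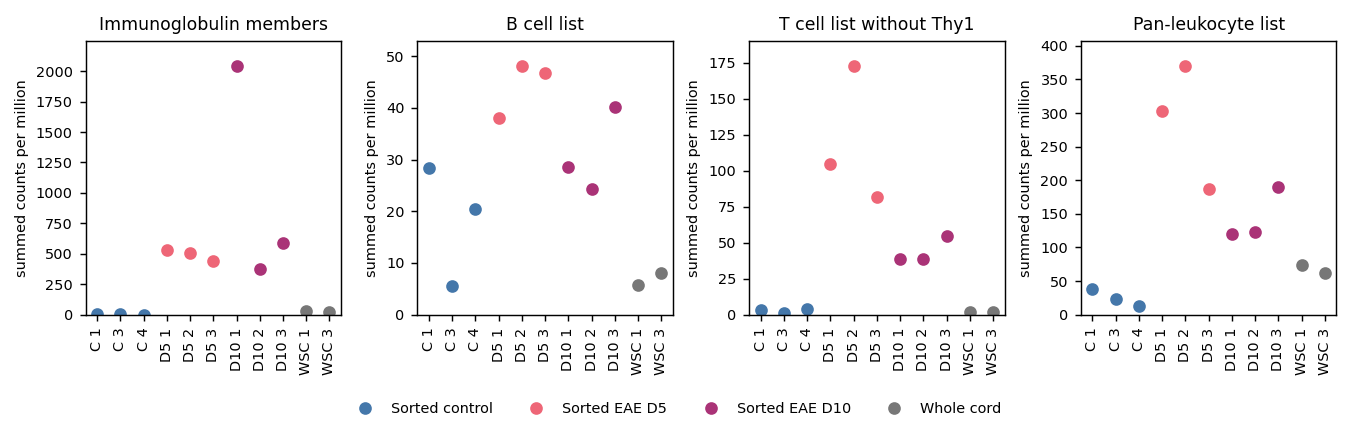
Summed level, in CPM on linear axes, of all immunoglobulin members, of the B cell list, of the T cell list without Thy1 and of the pan-leukocyte list in each library (C control, WSC whole cord). Each point is 1 library. D10 replicate 1 is far above the other libraries in the first panel, at 2045 CPM, and stands at 28.5 CPM in the second, while the D5 libraries lead the T cell panel.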

How the data were processed

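Expression was measured by RNA sequencing (paired-end, 100 bases, HiSeq4000, per the labels' protocols) in 11 libraries. The authors deposited raw counts per gene, per the file headers. The submitters' processing notes name the mm9 build, DESeq2, HTSeq 0.6.1, SAMtools 0.1.19, TopHat2 2.0.11 and Bowtie2 2.2.1. The annotation, the use of strand and the handling of reads with several matches are not stated in these sources, so counts of near-identical segments are uncertain. The line of totals was kept out.

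Tests were the quasi-likelihood fits of edgeR 4.0.16 in R 4.3.3, with TMM scaling and its default filter on low counts, with Benjamini-Hochberg adjustment over all genes tested and a threshold of 0.05. The 9 sorted libraries entered 1 fit, and control and whole cord (5 libraries) another. The SE of a log2 fold change was derived from the test, as its absolute value divided by the square root of the F statistic. Alternatives were RLE scaling, DESeq2 1.42.0, limma-voom 3.58.1, no filter, all 11 libraries in 1 fit, a replicate block and leaving out each library. In simulated counts for D5 against control (15972 genes), 50% of 100 genes changed 2-fold and 94% of 100 changed 4-fold were recovered. Among the unchanged genes, 8 were called. Every simulated gene had the same dispersion, so these rates do not describe members that spread widely between libraries, such as Ighg2c.

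Where control had no count, folds used a floor of 3 counts over the group. Shares have 95% Clopper-Pearson intervals, and levels exact Poisson intervals. Replicate numbers only name samples. The pools are biological replicates, per the design text. Of the members, 38 were matched to GENCODE M21 (GRCm38) by identifier and 61 by symbol, for chromosomes and sequences only. Igkv19-93, Ighv7-1 and Igj have other symbols there. Text names every constant gene and Igj, the 5 V segments per locus with most counts, those with at least 20% of their locus in a library, and every called member. Cell type lists give their counts, and examples from them beyond the most abundant and the called genes were chosen after their values were seen, as were Ighv9-2 and Ighv10-3, named as nearest relatives, and Ighv1-80 and Igkv12-46, named for their counts in control. The members, lists and tests were chosen with earlier results of these data known.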

Additional observations from a re-analysis of the deposited data

Results flagged for a closer look

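Heavy chain joining segments, which lie outside the symbols used for the members, held 276 counts in the 6 EAE libraries and 0 in the 3 control libraries. Of these, 183 counts were in D10 replicate 1 and 69 in D10 replicate 2, and D5 replicate 3 had 0. Rows with a matching symbol but fewer than 10 counts in all held 107 counts in the EAE libraries and 0 in control. Both were noted because they show counts outside the members above the level in control.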

How the results depend on the processing

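The direction of every called member against control was kept under every alternative run. With limma-voom, 3 members were called at D5 and 1 at D10. With no filter, 44 were called at D5, 56 at D10, 15 between the stages and 2 in control against whole cord, and 99 members were tested in the sorted fit. Leaving out 1 library gave 7 to 10 members at D5, 5 to 19 at D10, 0 to 3 between the stages and 1 in control against whole cord. The 5 came without control replicate 4, and 19 and 14 without D10 replicates 2 and 3. Calls of all genes in the main fit were 3817 at D5, 2136 at D10 and 9208 in control against whole cord. With limma-voom they were 3641 at D5 and 2045 at D10. With no filter they were 4105 at D5, 2649 at D10 and 9360 in control against whole cord. Over all genes, the 21 calls between the stages became 184 with DESeq2, 33 with limma-voom and 265 with no filter, and 1 to 218 when 1 library was left out. The cause was not tested. The replicate block called 10 members at D5, 11 at D10 and 1 between the stages (Igj, adjusted p = 0.0459). With it the call of Ighv1-72 was lost at D5 (adjusted p = 0.0589) and at D10 (0.137), as was that of Igkv1-117 at D10 (0.155). The numbers do not pair the samples: the correlations of same-numbered deviations ran from -0.0582 to 0.136.

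Between the stages, uncalled differences changed sign. Ighg2b went to -0.90 (log2) with limma-voom and -0.43 with the block, and leaving out 1 library took it as low as -0.47, with 0.60 as the highest. Ighg2c went to -0.66 with limma-voom and to -0.81 without D10 replicate 1, with 2.07 as the highest when 1 library was left out. Ighm ran from -0.78 to 1.83 when 1 library was left out.

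The mean level at D5 was 338 CPM without Igkc, and that of whole cord 1.96 CPM without Ighm. Leaving out 1 library gave mean levels of 1.12 to 3.14 CPM in control, 473 to 518 CPM at D5, 480 to 1316 CPM at D10 and 21.2 to 28.2 CPM in whole cord. Whole cord held 0 V segments per library at a minimum of 3 or of 5 counts. On counts per kilobase, a choice made after seeing the data like the folds without 1 library and the T cell sum without Thy1, the leading IgG gene of each EAE library kept a share of 42.1% to 88.1%.

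In the sorted fit 80 of the 99 members did not pass the filter, among them Igkv6-13 with 484 counts in the EAE libraries, and 107 counts lay in rows below the threshold for membership.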
